A study of Sorghum bicolor with 9 samples.

Results

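A set of 36 gene loci of the sorghum anther rose between meiosis and the microspore stage and kept at least 0.560 of that level in anthers with pollen, where 27 were higher than before and 9 were lower. The 36 were chosen from 33115 loci with a gene ID by their own stage values. Each had at least 5 FPKM (a read level scaled to transcript length and library size) in anthers with microspores and in anthers with pollen. Each was also at least 4-fold higher in both than in meiotic anthers, and its pollen-stage value was at least 0.5 of the microspore-stage value. Folds were taken after adding 0.5 FPKM to both values. All 3 stage values were thus used in the choice, so the differences between stages here are descriptions of the members and no test was run on them. The choice left out loci that fell far in A3, which raised the share of members that were higher there. Of 38 loci that met these limits, Sobic.001G191200 and Sobic.002G338500 were set aside by name.

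Whole anthers of the Sorghum bicolor cultivar M35-1, grown in an open field, were sequenced at 3 stages with 3 libraries each, 9 in all. Stage A1 ran from meiosis to tetrads, A2 held microspores and A3 held pollen. The labels name no treatment and no altered genotype, and the stages were sorted by anther length. The project codes in the library names are not balanced over the stages, and the 2 cannot be told apart in combined values. The labels give the tissue as male gametophyte, but the anther wall was sequenced too. The deposited table gives 1 FPKM value per locus and stage, with the libraries of a stage already combined by the authors, so no value below has an SD and the depth behind it is unknown.

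In a grass anther, meiocytes divide to form tetrads, and the tetrads release microspores that become pollen after 2 mitoses. The tapetum, the inner wall layer, feeds the microspores and supplies much of the outer pollen wall, and then dies before the pollen is ripe. A transcript of a whole anther can come from the tapetum, the other wall layers or the male cells. In whole anthers, fewer cells of a type and less RNA per cell cannot be told apart.

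Stage values of marker genes that the study names are given here. The study had selected them as differing between stages in these same data, so they are no independent check of the labels. Some meiotic genes that the study lists with a peak at A3 were not used. The 4 meiotic genes DMC1, ZEP1, HEI10 and PAIR3 summed to 175 FPKM at A1, 133 at A2 and 55.3 at A3. For 9 tapetum genes the sum was 2702 FPKM at A1, 6903 at A2 and 189.8 at A3, and 2 of the 9, TIP2 and OsABCG26, were lower in A2 than in A1. CYP703A3 (Sobic.007G029900, an enzyme of pollen wall lipids) stood at 409, 942 and 0.921 FPKM, whereas the regulator TDR (Sobic.004G017500) was still at 101 FPKM in A3. The anther wall gene HTH1 (Sobic.006G185600) stood at 52.8, 194 and 0.171 FPKM. The 5 pollen genes (2 matches of the pollen allergen OSIPA, OsPCBP, OsPLIM2b and OsUgp2) summed to 0.767 FPKM at A1, 0.581 at A2 and 279 at A3. None of these 19 markers met the limits of the choice, which 0.123% of all loci met, so the count says nothing about the markers. The tapetum list and the 1 wall gene were highest in A2, and the pollen genes had their highest sum in A3, with none of the 5 above 1 FPKM in A1 or A2. A further gene, WDA1 (Sobic.001G222700), which the paper links to the tapetum and anther walls, was in none of the lists. It went the other way, with 30.1 FPKM at A1, 45.7 at A2 and 295 at A3. Of the tapetum genes only OsNP1 and CYP704B2 gained at least 4-fold from A1 to A2, and both were under 1 FPKM in A3. The part of these cell types in the values of the members was not tested.

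The course of the members was rare. At least a 4-fold higher value in A2 than in A1 was found for 1.08% of 30776 loci (those with an ID that were above 0 at some stage), and in A3 over A1 for 8.97%. Both together, with 5 FPKM in A2 and A3, held for 0.123%. Across the members the median log2 value was 2.66 for A2 over A1 and 4.16 for A3 over A1, and 1.08 for A3 over A2. The medians over all 30776 loci lay between 0.00 and 0.01 for these comparisons. These values restate the choice of the loci.

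Most loci gained by microspore anthers were lost again. A total of 170 loci had at least 5 FPKM in A2 and were at least 4-fold above A1. Of these, 109 lay under 5 FPKM in A3, and 96 were under 0.1 of their A2 value. A further 23 kept 5 FPKM or more in A3 but were less than 4-fold above A1. The remaining 38 were the loci described here and the 2 set aside. The limit of 0.5 removed none of the 38, and the lowest ratio of A3 to A2 among members was 0.560.

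**Figure D1:**
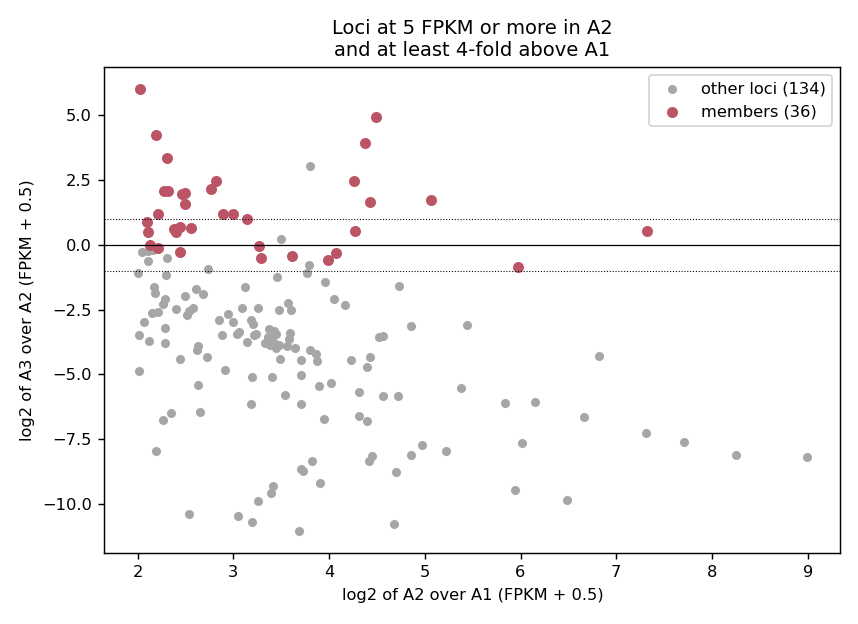
Log2 of A2 over A1 (horizontal) against log2 of A3 over A2 (vertical), both after adding 0.5 FPKM, for the 170 loci at 5 FPKM or more in A2 and at least 4-fold above A1. Red points are the 36 members and grey points the other loci, and dotted lines mark a 2-fold difference between A2 and A3. Most grey points lie below the lower line.

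Many more loci were gained by the pollen stage. In A3, 2103 loci had 5 FPKM or more and at least 4 times the A1 value, and 1922 of them differed from A1 by less than 2-fold, or were lower, in A2. Those 1922 had a median of 0.687 FPKM at A1, 0.719 at A2 and 23.1 at A3. The members had medians of 2.77, 20.6 and 71.6 FPKM. The 125 loci that rose at A2 but fell below 0.5 of that value in A3 had medians of 1.58, 34.0 and 0.332 FPKM.

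To call all 36 switched on at microspores would go against their values in A1. In A1, 13 members were under 1 FPKM, and 1 of them, Sobic.010G098100, was listed at 0. These 13 were also the only such loci among the 9961 with 5 FPKM or more in A2 and A3 (0.131%). That share is made up of the members themselves, so it is no background for them. A further 13 had between 1 and 10 FPKM in meiotic anthers, and 10 had more than that, up to 1199.55 FPKM. The last group was already transcribed before the microspore stage and rose from there. Being kept describes 18 of the 36, which lay within 2-fold between A2 and A3. The other 18 were at least 2-fold higher in A3 than in A2, where 16.5% of all loci and 12.7% of loci with 5 FPKM in both stages reached that fold. No member fell by 2-fold, which 12.6% of all loci did and which the choice would not have allowed. By leaving out loci that fell, the choice also raised the share of members that rose. The count of 18 thus cannot be set against the background shares as a trait of the members.

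**Figure D2:**
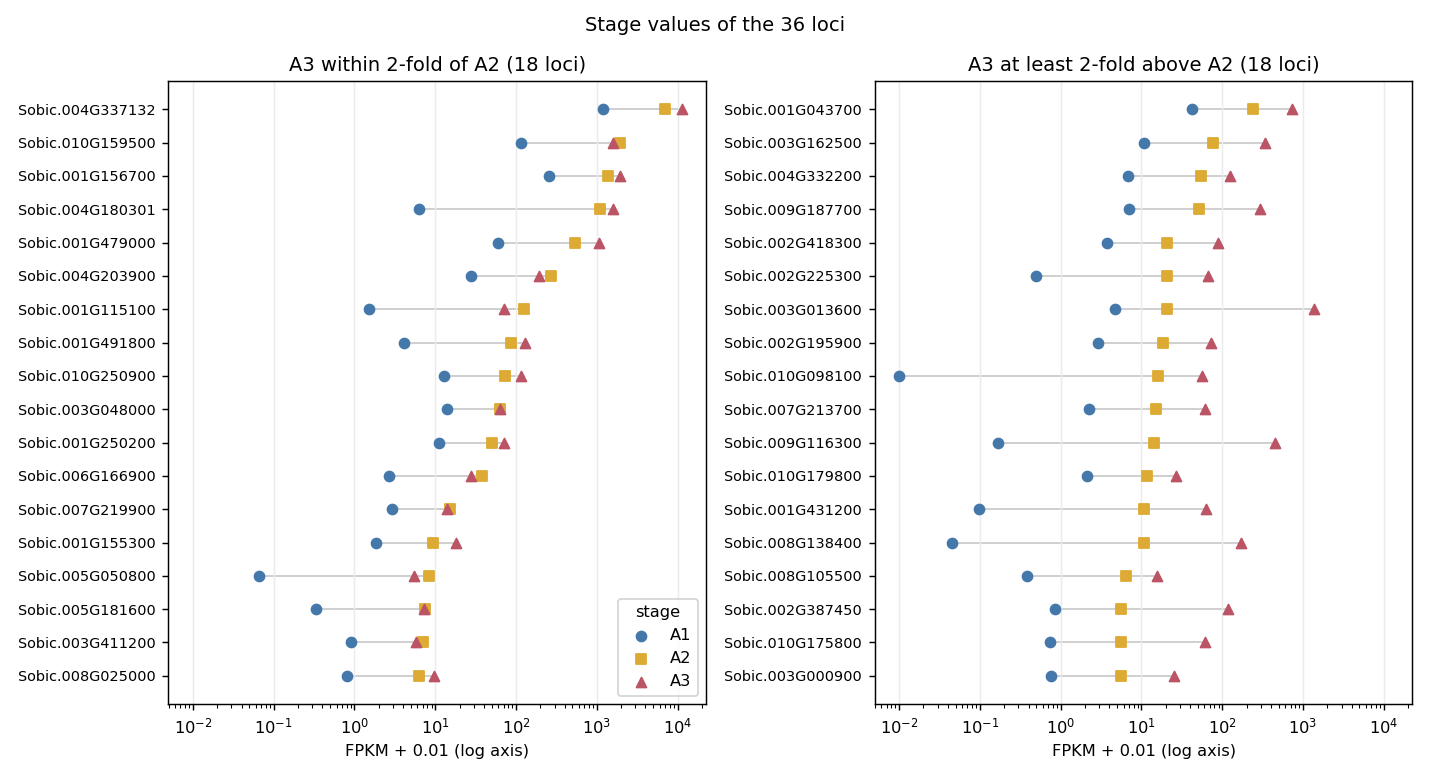
FPKM plus 0.01 on a log axis in A1 (blue circles), A2 (yellow squares) and A3 (red triangles) for the 18 members within 2-fold between A2 and A3 (left) and the 18 that rose further (right), ordered by A2 value. Each point is the authors' combined value of a stage, and Sobic.010G098100 was listed at 0 in A1.

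The level in A1 and the later course are given together here, with no test. Of the 13 under 1 FPKM in A1, 9 rose further in A3, and of the 10 at 10 FPKM or more, 8 were kept within 2-fold. The 13 between 1 and 10 FPKM split into 6 kept and 7 that rose further. In 32 of 36 members the log2 step from A1 to A2 was larger than the step from A2 to A3. The choice favours this, since it asked for at least 4-fold over A1 in A2 and for no rise after A2. The share of the whole A1 to A3 rise that was reached in A2, on the log2 scale, had a median of 97.1% in the kept loci and 55.5% in the others, a gap that follows from splitting them by the fold of A3 over A2.

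Among the 36, only a few had a described match. Names were taken from the study's list of rice and Arabidopsis matches, of which the part used here covers 1594 genes of chromosomes 1 and 2. The list holds genes that the study called as differing between stages, so a member absent from it may not have been called. Of 12 members on these chromosomes 7 were in the list, 5 had a match and 3 of those had a described function. Sobic.001G043700, Sobic.001G250200, Sobic.001G479000 and Sobic.001G491800 were among those absent, and the reason was not tested. The 3 with a described function are taken up next. They were a gene of abscisic acid synthesis, a heat shock factor and an oxidase, and the roles given for them come from Arabidopsis and rice.

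The abscisic acid gene Sobic.001G155300 lies on chromosome 1 from 12561395 to 12563230 (Phytozome v3.0.1, the build of all positions here) and matches nine-cis-epoxycarotenoid dioxygenase, the enzyme that cleaves carotenoids in the step that limits synthesis of the hormone. It had 1.83 FPKM at A1, 9.47 at A2 and 17.9 at A3. The rise was 4.28-fold from A1 to A2 and 1.84-fold from A2 to A3, which placed it close to the lower limit of the choice and among the kept loci. Abscisic acid is known from seeds and leaves as a hormone of dormancy and water stress. No other gene of this enzyme family was in the names used here.

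The heat shock factor gene Sobic.002G225300, on chromosome 2 from 61728090 to 61733092, matches Arabidopsis heat shock factor 4, a class B factor that lacks the activation domain of class A factors. It rose from 0.483 FPKM in A1 to 20.7 in A2 and 67.0 in A3. That was 21.5-fold from A1 to A2, with a further 3.19-fold to A3. The rice match is described as carrying a conserved peptide in an upstream open reading frame, a short frame ahead of the coding region that can hold back translation. The other heat shock factor with a name here, Sobic.002G224200, matching factor B4, went from 1.11 to 0.872 and 0.0897 FPKM, so it did not rise with the member.

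The third described member, Sobic.001G431200, matches a glyoxal oxidase, a copper enzyme that oxidises aldehydes and releases hydrogen peroxide, in plants often into the cell wall. Located on chromosome 1 from 71028392 to 71030149, this locus had 0.0877 FPKM at A1, 10.7 at A2 and 62.5 at A3. The gain was 19.1-fold up to A2 and 5.60-fold after it. It was the only glyoxal oxidase gene in the names used here.

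Of the members with a rice match of unknown function, Sobic.001G115100 was the locus with the largest loss after A2. On chromosome 1, from 8991394 to 8995969, it had 1.52 FPKM at A1, 126 at A2 and 70.6 at A3. Only Sobic.004G180301 had a larger fold from A1 to A2 than its 62.8-fold. The other, Sobic.002G195900 on chromosome 2 from 58429604 to 58430468, rose steadily from 2.90 to 18.3 and 72.7 FPKM.

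Gene families were counted over the named genes of chromosomes 1 and 2. The study had selected these genes as differing between stages, so the counts are not independent of the stages. Over all loci, 2.91% were at least 2-fold higher in A2 than in A1, 17.4% were higher in A3 than in A1 and 12.6% were lower. No member was among the 6 NAC genes, a family of plant transcription factors, of which 3 were at least 2-fold higher in A2 and 3 in A3. Only 7 of the 1594 named genes were members, so their absence among 6 genes says nothing about the family. The 3 NAC genes higher in A2 had 1.07 to 1.42 FPKM there. Of 24 genes of secondary metabolism, 3 were at least 2-fold higher in A2 than in A1, 13 were higher in A3 and 9 were lower in A3. Of 13 genes listed as sugar transporters 4 were higher in A2, 10 were higher in A3 and 1 was lower in A3. The 4 were Sobic.001G488700, matching a sucrose transporter, Sobic.002G338500, matching a sugar transporter and set aside by name, Sobic.002G339100, matching an organic cation transporter, and Sobic.002G341700, matching a cell wall protein.

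The highest member at each stage was a very short locus, and 3 of the 4 highest in A2 and in A3 were under 500 bases. Sobic.004G337132, a locus of 159 bases on chromosome 4 from 66881274 to 66881432, had 1199.55 FPKM at A1, 7080.2 at A2 and 11271 at A3. It ranked 23rd at A1, 1st at A2 and 2nd at A3 among all loci with a gene ID. It was thus abundant in meiotic anthers already and rose 5.90-fold from there.

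Sobic.001G156700 spans 165 bases on chromosome 1 from 12675361 to 12675525 and had 259.6 FPKM at A1, 1369.8 at A2 and 1923 at A3. Sobic.004G180301 spans 408 bases on chromosome 4 from 53283342 to 53283749 and had 6.35, 1096 and 1577 FPKM. The last of these made the largest step of all members, 160-fold from A1 to A2 by the values after adding 0.5, and then stayed within 1.44-fold. Its rank among loci with a gene ID moved from 10850 in A1 to 39 in A2 and 24 in A3.

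These 3 loci, all under 500 bases, made up most of the members' sum in A2 and A3. Of all FPKM summed, the members made up 0.283% at A1, 1.99% at A2 and 2.73% at A3. Without the 3 short loci the shares were 0.0535%, 0.571% and 0.918%. FPKM of a locus close to the length of a sequenced fragment depends on how the effective length is set, and the effect of this on the 3 loci was not tested.

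Locus length was not itself a limit of the choice. FPKM is scaled to transcript length, though, so length is not independent of the limits set in FPKM. Of the 36 members 8 spanned under 1000 bases, against 11.4% of all loci with a gene ID and 2.08% of the 9961 loci at 5 FPKM or more in A2 and A3. The median locus length was 2329 bases in the members, 3843 over all loci with a gene ID and 6171 over those 9961. The 125 loci that fell again in A3 had a median length of 2406 bases, and 12.8% were under 1000 bases. Among the 1922 loci gained at A3 the median was 3219.5 bases and the share 11.5%. The members thus held the largest share of short loci of the 3 sets, at 22.2%, a difference that was not tested.

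**Figure D3:**
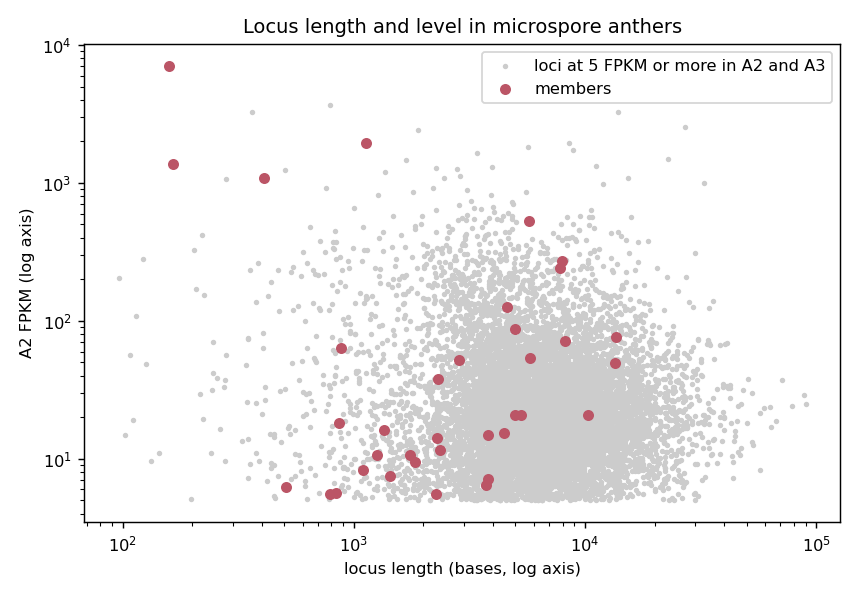
Locus length in bases against A2 FPKM, both on log axes, for the 9961 loci with a gene ID at 5 FPKM or more in A2 and A3 (grey) and the 36 members (red). The 3 members under 500 bases stand at 1096 FPKM or more, and members of 500 to 1000 bases at 63.5 FPKM or less.

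Other abundant loci of the kept set were longer, at 1129 to 7935 bases, and the last 2 below share their interval with another locus. Sobic.010G159500, on chromosome 10 from 46845441 to 46846569, had 115 FPKM at A1, 1938 at A2 and 1568 at A3, a 16.8-fold gain that left it 17th in rank in A2. Sobic.001G479000, on chromosome 1 from 75114131 to 75119835, rose from 59.4 to 530.1 and 1052 FPKM. Its A3 value was 1.98-fold the A2 value, just under the 2-fold line. Sobic.004G203900, on chromosome 4 from 55555297 to 55563231, went from 27.4 to 272 FPKM and then to 194.

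A middle group of the kept loci lay between 9 and 100 FPKM in A2. Sobic.001G491800 (chromosome 1, 76154877 to 76159835) had 4.06 FPKM at A1, 87.8 at A2 and 128 at A3. Sobic.010G250900 (chromosome 10, 58982846 to 58991075) had 12.9, 72.1 and 116 FPKM. Both went on rising slightly. In Sobic.003G048000 (chromosome 3, 4391944 to 4392822) the plateau was nearly level, with 14.1 FPKM at A1, 63.5 at A2 and 62.7 at A3. Sobic.001G250200 (chromosome 1, 26998407 to 27011842) had 11.2, 49.8 and 70.3 FPKM. Sobic.006G166900 (chromosome 6, 52428657 to 52430960) fell a little after A2, with 2.64, 37.8 and 28.0 FPKM. Sobic.007G219900 (chromosome 7, 64802700 to 64807148) was again nearly level at 2.92, 15.4 and 14.1 FPKM.

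The faintest kept loci were those under 1 FPKM in A1. Sobic.005G050800 (chromosome 5, 4843952 to 4845046) had 0.0554 FPKM at A1, 8.34 at A2 and 5.41 at A3. Sobic.005G181600 (chromosome 5, 66429305 to 66430734) had 0.328, 7.50 and 7.32 FPKM. Both came from near 0 and reached less than 10 FPKM. Sobic.003G411200 (chromosome 3, 71850226 to 71854024) had 0.902, 7.10 and 5.79 FPKM, and Sobic.008G025000 (chromosome 8, 2227340 to 2227846) had 0.794, 6.23 and 9.77 FPKM. In A2 and in A3, all 4 stood between the 60.9th and 69.4th percentile of loci with an ID that were above 0 at some stage. The study classes levels up to 10 FPKM as low, so these were low transcripts even at their height.

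Of the 18 loci that rose further, 7 gained at least 5-fold from A2 to A3, among them the glyoxal oxidase gene. The largest late gain was that of Sobic.003G013600 on chromosome 3 from 1209252 to 1219558, with 4.70 FPKM at A1, 20.6 at A2 and 1379 at A3. Its step to A2 was 4.06-fold, the smallest of all members, and its step to A3 was 65.3-fold. Only 25.1% of its log2 rise was reached in A2.

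Sobic.009G116300, on chromosome 9 from 45870501 to 45872780, climbed from 0.155 FPKM in A1 to 14.2 in A2 and 449.8 in A3. Sobic.008G138400, on chromosome 8 from 56732521 to 56733783, climbed from 0.0349 to 10.6 and 169 FPKM. Both were nearly silent in A1 and made about equal log2 steps to A2 and to A3. Sobic.002G387450 (chromosome 2, 74164415 to 74165250) had 0.837, 5.62 and 116 FPKM, and Sobic.010G175800 (chromosome 10, 51300749 to 51301540) had 0.720, 5.54 and 60.5 FPKM. In this last pair most of the log2 rise came after A2. Sobic.009G187700 (chromosome 9, 54003909 to 54006769) started higher, with 6.92 FPKM at A1, 52.0 at A2 and 292 at A3.

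Sobic.010G098100, on chromosome 10 from 8872868 to 8874217, was the only member listed at 0 in A1. It had 16.2 FPKM in A2 and 55.5 in A3, and no fold over A1 is given for it. Without reads, a listed 0 cannot be told apart from a level too low to be estimated.

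The remaining loci that rose further did so by 2 to 5-fold after A2. The 2 abundant ones were Sobic.001G043700 (chromosome 1, 3272516 to 3280274), with 42.3 FPKM at A1, 242 at A2 and 729 at A3, and Sobic.003G162500 (chromosome 3, 19991422 to 20005039), with 10.8, 76.4 and 339 FPKM. Sobic.004G332200 (chromosome 4, 66511184 to 66516963) had 6.86, 54.3 and 125 FPKM. These 3 rose in 2 clear steps from a level already above 5 FPKM. Sobic.002G418300 (chromosome 2, 76615340 to 76620636) had 3.79, 20.9 and 89.2 FPKM. Sobic.007G213700 (chromosome 7, 64253699 to 64257500) had 2.24, 14.9 and 62.0 FPKM. Their courses were nearly parallel. Sobic.010G179800 (chromosome 10, 51789536 to 51791889) had 2.10, 11.6 and 27.0 FPKM. Sobic.003G000900 (chromosome 3, 115274 to 117541) had 0.747, 5.53 and 25.0 FPKM, and Sobic.008G105500 (chromosome 8, 49760626 to 49764366) had 0.377, 6.51 and 15.4 FPKM. These last 3 were the lowest of the 18 in A3.

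As a set, the members stood higher in A2 and A3 than in A1, a rise that the choice of loci asked for. In A1 3 of 36 exceeded 100 FPKM, in A2 8 did and in A3 16 did. The share of all loci above 100 FPKM was not counted, so these counts are no trait of the members. The median percentile among the 30776 loci with an ID that were above 0 at some stage was 55.2 at A1, 82.2 at A2 and 94.7 at A3. In A3 the kept loci and those that rose further had like medians of 70.4 and 80.9 FPKM, but in A2 the medians were 67.8 and 15.6 FPKM. The groups were split by the fold of A3 over A2, which bears on these medians.

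The members were found on all 10 chromosomes, with 8 on chromosome 1, 5 each on chromosomes 3 and 10 and 1 on chromosome 6. The share of all loci on each chromosome was not counted, so these counts cannot show an excess on any. Each member had 1 gene ID. Of loci at 5 FPKM or more in A2 and A3, 6.64% had several. With a share this low, the absence of such loci among the members does not set them apart, and no test was run. The closest members, Sobic.001G155300 and Sobic.001G156700, were 112130 bases apart, and the next closest, Sobic.004G332200 and Sobic.004G337132, were 364310 bases apart.

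The loci next to the members were compared with all loci by counts alone. Of 80 loci above 0 in the nearest interval on either side, 7 (8.75%) were at least 2-fold higher in A2 than in A1, against 2.91% of all loci, and 1 was 2-fold lower. With 5 intervals on either side it was 15 of 380 (3.95%). The share thus lay farthest above the background in the nearest interval, a difference that was not tested. The median log2 of A2 over A1 among the 80 was 0.03, and most neighbours differed by less than 2-fold.

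The neighbours that rose were mostly low. Sobic.005G181500, 2362 bases from Sobic.005G181600, had 0.0525 FPKM at A1, 8.66 at A2 and 1.64 at A3, and so did not keep its level. Sobic.005G050900, 6520 bases from Sobic.005G050800, had 0.00152, 2.08 and 2.27 FPKM and followed the kept course at a low level. Sobic.010G159400, 6401 bases from Sobic.010G159500, had 0.853, 4.78 and 5.24 FPKM. It too kept its gain. Sobic.001G479100, 103 bases from Sobic.001G479000, had 60.7, 191.5 and 341 FPKM and rose in the same order as its neighbour. Sobic.008G138300, 7778 bases from Sobic.008G138400, reached 2.70 FPKM in A2 and fell to 0.675 in A3, whereas the member went on to 169 FPKM. Sobic.010G098000 and Sobic.002G196000 peaked at 1.44 and 1.33 FPKM in A2. Whether neighbours are copies that share reads was not tested.

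**Figure D4:**
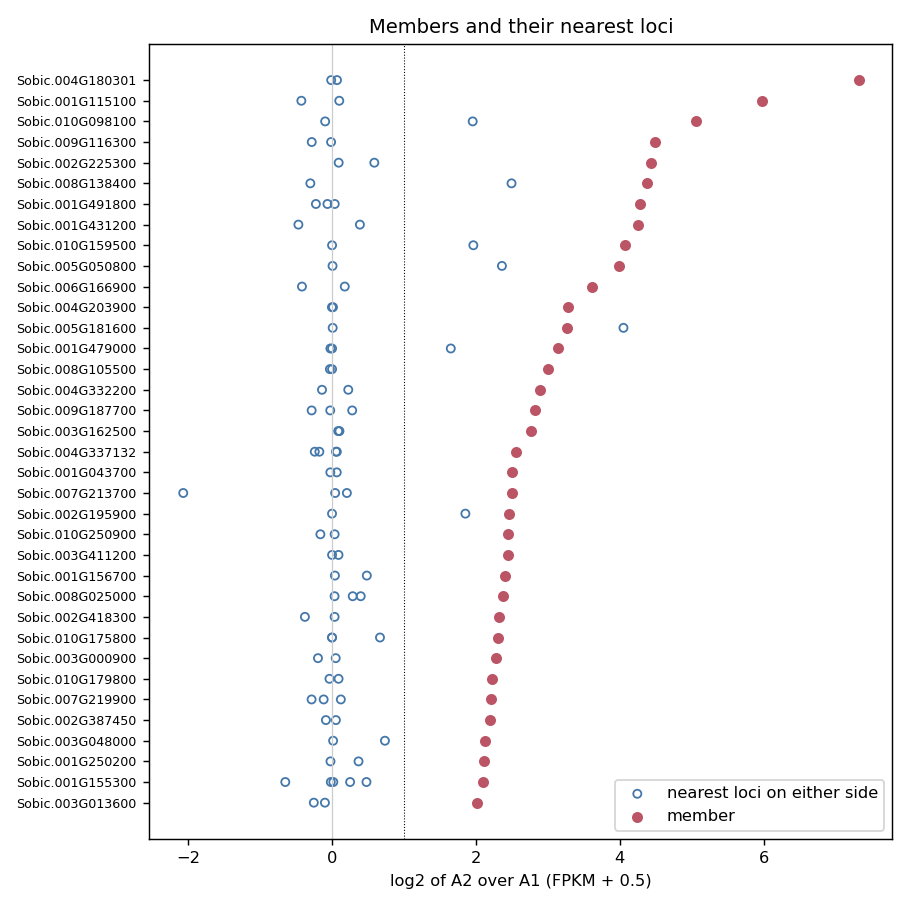
Log2 of A2 over A1 after adding 0.5 FPKM for each of the 36 members (red) and the loci with a gene ID in the nearest interval on either side (open blue circles). The dotted line marks 2-fold, which 7 of the neighbours passed. The value of Sobic.010G098100, listed at 0 in A1, depends on the 0.5 added.

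For 7 members the table gives the same interval to at least 1 other assembled locus, as it does for 29.9% of loci at 5 FPKM or more in A2 and A3. Of the 8 partners 0 had a 2-fold higher value in A2, where 2.91% of all loci did, so the count sets them apart from no other loci. Sobic.004G203800, in the interval of Sobic.004G203900, had 8.04 FPKM at A1, 7.80 at A2 and 4.37 at A3. In the interval of Sobic.001G250200, its partner Sobic.001G250300 was the more abundant at all 3 stages, with 75.5, 65.9 and 89.6 FPKM. Sobic.001G491900, in the interval of Sobic.001G491800, had 4.16, 3.88 and 24.0 FPKM and so rose only at A3. The lengths given for these 7 are those of the shared interval, and how reads were divided within it was not tested.

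Near the limits of the choice, single loci differed little. At the limit of 5 FPKM in A2, Sobic.003G000900 was just inside with 5.53 FPKM and Sobic.003G137400 just outside with 4.95, followed by 216 FPKM in A3. By the fold of A2 over A1, Sobic.003G013600 was just inside at 4.06-fold and Sobic.008G124766 just outside at 3.98-fold, with 17.1, 69.4 and 135 FPKM. By the fold of A3 over A1, Sobic.007G219900 was inside at 4.28-fold and Sobic.009G022000 outside at 3.88-fold, with 7.65, 36.1 and 31.1 FPKM. At the limit of 5 FPKM in A3, Sobic.005G050800 was inside with 5.41 and Sobic.007G044600 outside with 4.22 FPKM.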

How the data were processed

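Total RNA of whole anthers was made into stranded libraries, 3 per stage. The authors trimmed low-quality bases and adapters with AdapterRemoval, removed rRNA reads with Bowtie2 2.2.9, mapped what remained to the sorghum genome of Phytozome, v3.0.1, using STAR, and quantified loci with StringTie 1.3.3b and cuffdiff. The deposited FPKM table, on a linear scale, has 1 entry for each locus at each stage. Reads and values per library were not used here, so depth and precision are unknown and no test between stages was run. The table has 40082 loci, 33115 with a gene ID.

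The members, lists and limits were chosen with earlier results of these data known. Values were handled with python 3.11.15, numpy 2.4.6 and pandas 2.3.3. Folds and log2 values used FPKM plus 0.5. Background shares come from 30776 loci, those with an ID that are above 0 at some stage. The step that picks the loci was tested on simulated data. Starts are the deposited ones plus 1, which met 706 RefSeq starts against 143 without it. Every member is named, and the markers were genes named in the study. A planned search of promoters for motifs was not run, and no sequence is given. Other pseudocounts, limits and scalings were tried.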

Additional observations from a re-analysis of the deposited data

How the results depend on the processing

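The values have no replicate error, so differences between settings cannot be set against one. Of the 36 members, 36 were among 45 loci at a pseudocount of 0.1 and 29 were left at 1. The number of loci chosen was 151 at 2-fold and 13 at 8-fold over A1, and 65 with a minimum of 1 FPKM. It was 35 after median-of-ratios scaling, without Sobic.003G013600, 44 with equal sums (31 of them members) and 32 after quantile scaling (30 of them members). Lost in both of the last 2 were Sobic.003G013600, Sobic.003G048000, Sobic.003G411200 and Sobic.007G219900. Equal sums also lost Sobic.001G115100, and quantile scaling also lost Sobic.001G155300 and Sobic.005G050800. Before scaling, the FPKM of all loci summed to 638053 at A1, 672303 at A2 and 815871 at A3. The median log2 of A2 over A1 was 2.83 and 2.52 at pseudocounts of 0.1 and 1, and 2.63, 2.62 and 2.65 with median-of-ratios, equal sum and quantile scaling. For A3 over A1 these were 4.56, 4.04, 4.13, 3.94 and 3.93. For A3 over A2 they were 1.10 and 1.06 at the pseudocounts and 0.82 and 0.90 with equal sum and quantile scaling. Members of 500 bases or more, a setting added after the data were seen, gave 2.76 for A2 over A1 and 1.19 for A3 over A2. At least 2-fold higher in A3 than in A2 were 15 members with equal sums and 18 in the other settings. Over all loci, 625 and 205 were 4-fold higher in A2 than in A1 at pseudocounts of 0.1 and 1, against 332. No paired analysis was possible because the table holds 1 value per stage and no value per replicate, and no replicate could be left out for the same reason.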

Other observations

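The same limits were met by 26 of the 6967 loci without a gene ID. The highest of them in A2, on chromosome 1 from 2446427 to 2446998, had 327 FPKM at A1, 2248 at A2 and 3928 at A3. The next, on chromosome 10 from 55957854 to 55958407, had 439 FPKM at A1, 2049.8 at A2 and 2234 at A3. Both spanned under 1000 bases, and what they encode is not given by the table.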
